A study of Mus musculus with 6 samples.

Results

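The 10 genes described here encode plasma proteins and acute-phase proteins, the proteins that circulate in blood and whose amounts change in inflammation. They are Alb, Ttr, Fgg, Ahsg, Apoa1, Apoa2, Lbp, Lcn2, Saa3 and Hp, and they were read in whole mouse lung after naphthalene. The members were chosen by name with their measured difference between the genotypes in view, so that this difference is described below and not tested. A member is a probe set annotated to exactly 1 of the 10 symbols. Each of the 10 genes had 1 such probe set, and they are 10 of 16537 genes measured. Naphthalene injures the conducting airway, because club cells turn it into a toxic metabolite. The arrays labelled Falcor-null, 3 in number, came from lung lacking the long non-coding RNA gene Falcor by their label, with the labels giving days 31, 32 and 33 after naphthalene. The 3 wild-type arrays are labelled with days 28, 29 and 30. The labelled day goes up by 1 from each sample to the next in the order of deposit, so whether these were the true sampling days is uncertain. All 6 samples carried 1 strain label, a mix of CD1 and C57Bl6. Day and genotype changed together in the labels and cannot be told apart. Age and sex are not in the labels, and nothing in them states that each sample was a different animal, so errors and p-values cover only sample-to-sample spread and part of it may be technical.

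Plasma proteins are made chiefly by hepatocytes, and in inflammation the cytokines interleukin 6, interleukin 1 and tumour necrosis factor change their production. Positive acute-phase proteins such as fibrinogen, serum amyloid A and haptoglobin increase, and negative ones such as albumin, transthyretin and fetuin A decrease. In lung, airway and alveolar epithelium, macrophages and neutrophils also make some of them, among them lipocalin 2, serum amyloid A3, haptoglobin and the lipopolysaccharide binding protein. The transcription factors C/EBP, HNF1 and the FOXA proteins are known regulators of such genes in liver. FOXA2 is the protein of Foxa2, the neighbour of Falcor.

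The stretches in front of 6 members are shown, 4 of genes secreted mainly by hepatocytes and 2 of genes also made elsewhere. For 5 of them a match to a motif was found, and that of Fgg, the gene with the largest difference, held none. Each is the 250 bases before the RefSeq start of the gene in build GRCm38.p6, written 5′ to 3′ on the strand of the gene. Capitals mark matches, on either strand, to a FOXA core (TGTTTNC), a C/EBP core (TTGCNNAA) or an HNF1 core (GTTAATNAT), where N is any base. Alb lies on the plus strand (chr5:90460620-90460869), as do Ahsg (chr16:22891765-22892014), Apoa1 (chr9:46228380-46228629) and Fgg (chr3:83007474-83007723). Saa3 (chr7:46715677-46715926) and Lcn2 (chr2:32387740-32387989) lie on the minus strand.
Alb: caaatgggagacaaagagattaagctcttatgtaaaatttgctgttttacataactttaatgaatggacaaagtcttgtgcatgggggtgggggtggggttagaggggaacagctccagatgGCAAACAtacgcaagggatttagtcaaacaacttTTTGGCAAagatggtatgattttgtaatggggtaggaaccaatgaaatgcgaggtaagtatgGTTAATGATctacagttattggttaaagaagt
Ahsg: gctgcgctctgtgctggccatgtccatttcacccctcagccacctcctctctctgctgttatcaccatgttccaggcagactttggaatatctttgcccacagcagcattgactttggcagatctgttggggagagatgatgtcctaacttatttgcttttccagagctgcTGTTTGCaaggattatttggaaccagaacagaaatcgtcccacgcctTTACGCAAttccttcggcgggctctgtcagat
Apoa1: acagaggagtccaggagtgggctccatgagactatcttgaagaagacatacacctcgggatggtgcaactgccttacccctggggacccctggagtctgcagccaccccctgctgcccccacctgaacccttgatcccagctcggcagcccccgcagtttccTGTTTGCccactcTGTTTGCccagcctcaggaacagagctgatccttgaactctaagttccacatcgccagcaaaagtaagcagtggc
Fgg: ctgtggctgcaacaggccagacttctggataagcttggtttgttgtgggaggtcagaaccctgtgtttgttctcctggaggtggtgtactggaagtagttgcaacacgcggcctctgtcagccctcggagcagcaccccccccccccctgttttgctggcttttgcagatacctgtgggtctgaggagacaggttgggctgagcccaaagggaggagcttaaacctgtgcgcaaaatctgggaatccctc
Saa3: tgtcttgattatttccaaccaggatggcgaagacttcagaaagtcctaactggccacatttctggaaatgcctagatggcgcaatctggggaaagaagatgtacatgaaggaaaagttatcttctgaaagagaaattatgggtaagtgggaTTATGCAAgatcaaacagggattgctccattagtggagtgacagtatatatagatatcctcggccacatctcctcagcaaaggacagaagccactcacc
Lcn2: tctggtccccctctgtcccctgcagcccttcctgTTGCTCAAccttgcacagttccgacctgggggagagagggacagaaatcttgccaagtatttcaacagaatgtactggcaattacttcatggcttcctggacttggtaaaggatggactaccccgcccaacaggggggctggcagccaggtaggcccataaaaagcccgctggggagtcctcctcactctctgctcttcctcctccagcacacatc

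The promoter table held 8 such stretches for 7 of the 10 genes, Apoa2 with 2 starts. The FOXA core stood in 4 of the 8, those of Alb, Ahsg, Apoa1 and 1 start of Apoa2, and in 17.8% of all 32851 promoters of the table. In Apoa1 it occurred at 88 and 75 bases before the start. The C/EBP core stood in 5 of the 8, those of Alb, Ahsg, Saa3, Lcn2 and the other start of Apoa2, and in 9.56% of all promoters. The HNF1 core stood in front of Alb alone and in 0.737% of all promoters. The motif TTCNNNGAA of STAT factors and the motif CAAAGTNCA of HNF4 stood in none of the 8, and in 7.02% and 1.19% of all promoters. A core of NF-kB (10 letters, given by name only), a factor that acts in inflammation, also stood in none of the 8 and in 4.11% of all promoters. Both strands were searched, and no matches to different motifs overlapped in the stretches shown. These counts describe letters in the sequence and carry no statement on binding.

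The values are log2 signals per probe set, and differences are read between arrays for the same gene or list. Between genes, mean signals serve only to mark dim or bright genes. Array medians were 6.69 to 6.74. Precision is limited by having 3 arrays a group. The probe set of Falcor itself read 6.82, 6.34 and 6.32 on the arrays labelled Falcor-null, against 4.69, 5.01 and 5.45 on the wild-type arrays. It was higher, not lower, on the arrays with the null label, and whether it lies in the deleted part is not known here, so every direction below rests on the labels. Markers of lung fitted the tissue label: the 8 alveolar type 2 cell markers, among them the surfactant protein genes, had a mean log2 signal of 12.3 to 12.4 on the arrays labelled Falcor-null and of 12.3 to 12.5 on the wild-type arrays.

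Of the 10 genes, 9 read lower on the arrays labelled Falcor-null than on the wild-type arrays, by 1.30-fold to 6.33-fold, and Hp alone read higher. Of all 16537 genes 49.2% read lower, the share to hold beside each count of lower or higher genes below. The median log2 difference of the 10 was -0.77, beside 0.0026 over all 16537 genes. For 8 genes all 3 arrays labelled Falcor-null lay below all 3 wild-type arrays, as was so for 10.6% of all genes. For Hp they lay above, as for 8.96% of all genes, and for Saa3 the groups overlapped. The genes were picked for this contrast, so nothing is read from these shares. In whole lung, fewer cells of a type and less RNA per cell cannot be told apart.

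**Figure D1:**
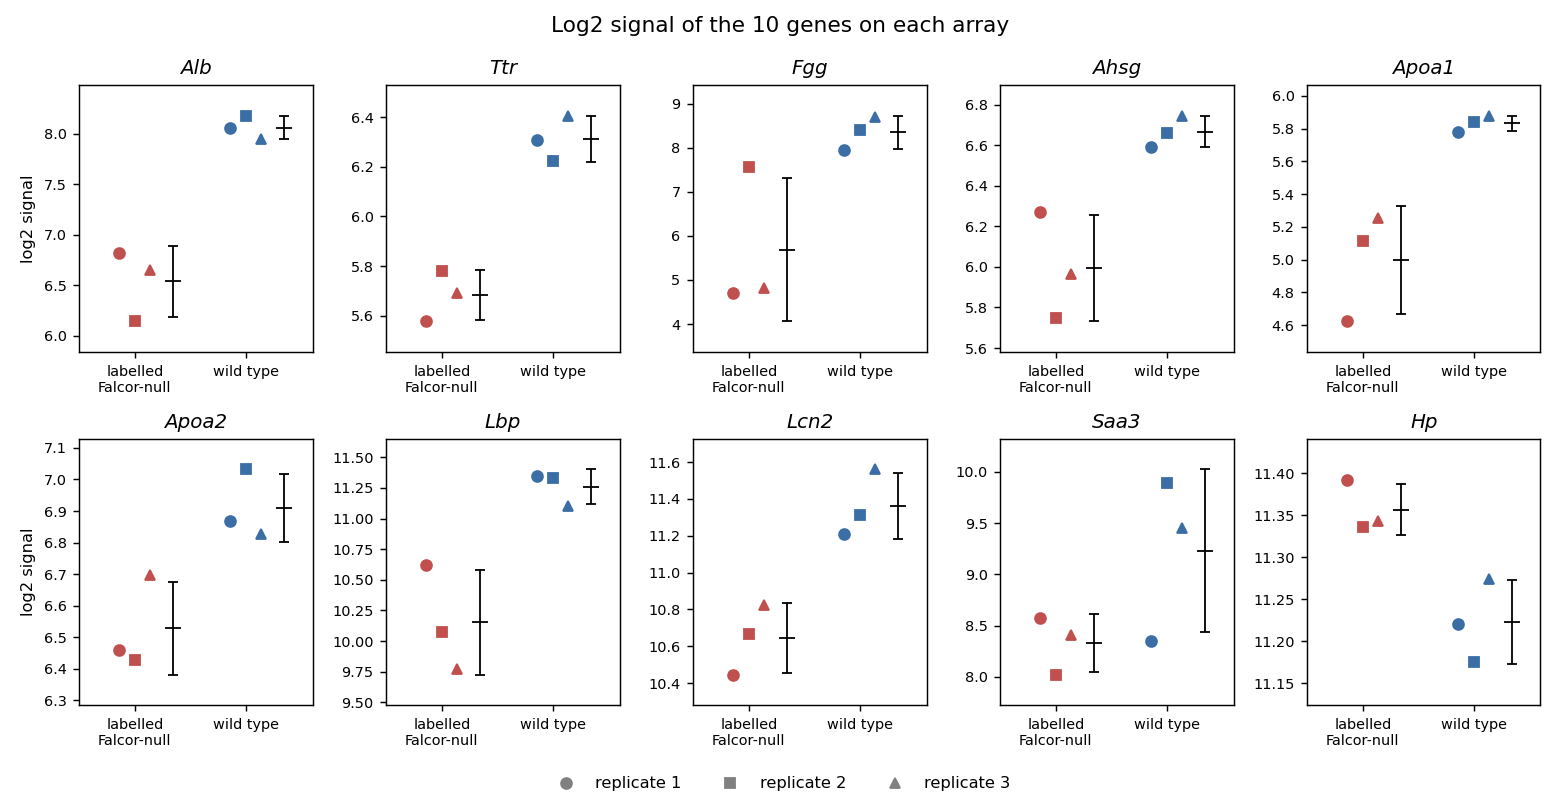
Log2 signal of each of the 10 genes (vertical axes, each with its own range) on the 3 arrays labelled Falcor-null and the 3 wild-type arrays, with the mean and SD of each group beside the points. The groups stand apart for all genes but Saa3, and 1 array labelled Falcor-null lies far above the other two for Fgg.

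The 6 genes whose proteins are secreted mainly by hepatocytes were all lower on the arrays labelled Falcor-null, with a median log2 difference of -0.75. Alb, which encodes albumin, the main carrier protein of plasma, read 6.82, 6.15 and 6.65 on the arrays labelled Falcor-null, against 8.06, 8.18 and 7.94 on the wild-type arrays. Every array of the first group lay more than 1 log2 unit below every wild-type array. The log2 difference of Alb was -1.52 (SE 0.17), or 2.86-fold lower. Ttr, which encodes the thyroxine and retinol carrier transthyretin, read 5.58, 5.78 and 5.69, against 6.31, 6.22 and 6.41 on the wild-type arrays. The arrays of each group lay close together and the groups did not overlap, with a log2 difference of -0.63 (SE 0.09). Ahsg, which encodes fetuin A, an inhibitor of mineral deposition, read 6.27, 5.75 and 5.96 on the arrays labelled Falcor-null and 6.59, 6.66 and 6.75 on the wild-type arrays. Its log2 difference was -0.67 (SE 0.13), with replicate 1 of the arrays labelled Falcor-null nearest to wild type.

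Fgg, which encodes the gamma chain of fibrinogen, the precursor of fibrin in clots, had the largest difference and the largest spread of the 10. It read 4.70, 7.57 and 4.81 on the arrays labelled Falcor-null, against 7.95, 8.40 and 8.70 on the wild-type arrays. Replicate 2 of the arrays labelled Falcor-null was close to wild type, and the other two lay more than 3 log2 units below every wild-type array. The log2 difference was -2.66 (SE 0.71), and it was -3.60 without that array. The spread within groups, as pooled SD, was 1.18 for Fgg, beside a median of 0.125 over all genes.

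Both apolipoprotein genes were lower. Apoa1, which encodes the main protein of high-density lipoprotein, read 4.63, 5.11 and 5.26 on the arrays labelled Falcor-null, against 5.78, 5.84 and 5.88 on the wild-type arrays. The groups did not overlap, with a log2 difference of -0.83 (SE 0.16), or 1.78-fold lower. The mean signal of Apoa1 was in the dimmest 30% of genes, where differences are compressed. Apoa2, which encodes the second protein of high-density lipoprotein, read 6.461, 6.427 and 6.698, against 6.87, 7.03 and 6.83 on the wild-type arrays. Its log2 difference of -0.38 (SE 0.10), or 1.30-fold lower, was the smallest of the 9 lower genes, and its closest arrays of the 2 groups were 6.698 and 6.828.

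The 4 genes also made outside the liver differed in direction, 3 lower and 1 higher on the arrays labelled Falcor-null. Lbp, which encodes the protein that hands lipopolysaccharide to Cd14, read 10.62, 10.07 and 9.77 on the arrays labelled Falcor-null, against 11.35, 11.33 and 11.10 on the wild-type arrays. The groups did not overlap, and the log2 difference was -1.11 (SE 0.20), or 2.15-fold lower. Lcn2, which encodes lipocalin 2, a binder of bacterial iron carriers, read 10.45, 10.66 and 10.82, against 11.21, 11.31 and 11.56 on the wild-type arrays. The lowest wild-type array stood above the highest array labelled Falcor-null, and the log2 difference was -0.72 (SE 0.13).

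Saa3, a serum amyloid A made in macrophages, fat and epithelium, read 8.57, 8.02 and 8.41 on the arrays labelled Falcor-null, against 8.35, 9.89 and 9.45 on the wild-type arrays. Wild type replicate 1 lay among the arrays labelled Falcor-null, and the other two wild-type arrays stood above all 3. The log2 difference was -0.90 (SE 0.36), -1.34 without wild type replicate 1 and -0.57 without wild type replicate 2. Hp, which encodes haptoglobin, the binder of free haemoglobin, read 11.39, 11.34 and 11.34 on the arrays labelled Falcor-null, against 11.22, 11.17 and 11.27 on the wild-type arrays. Its log2 difference of 0.13 (SE 0.07), or 1.10-fold, was the smallest in size of the 10, and its pooled SD of 0.0413 was also the smallest.

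**Figure D2:**
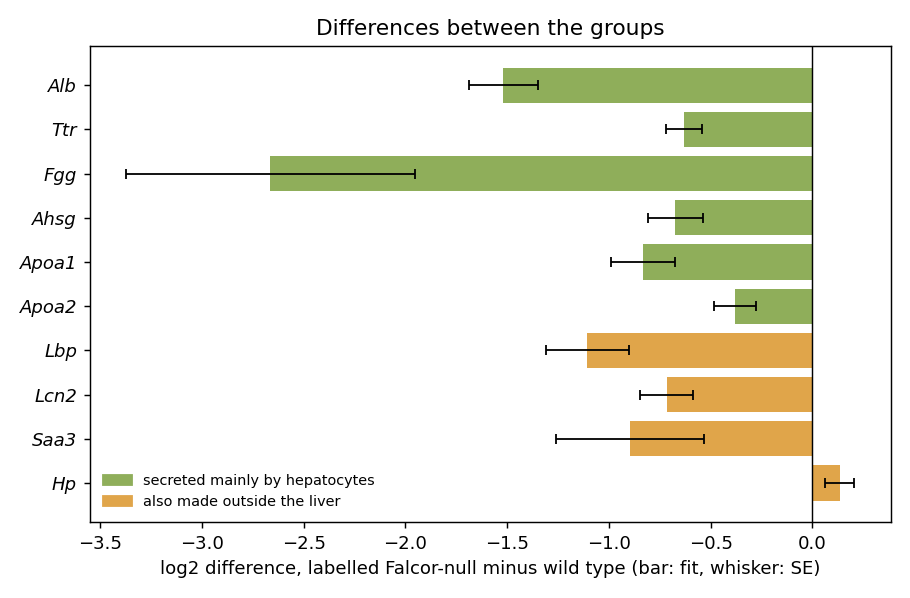
Log2 difference of each of the 10 genes (horizontal axis, arrays labelled Falcor-null minus wild type), with whiskers of 1 SE on each side. Colours mark genes secreted mainly by hepatocytes and genes also made outside the liver. The bars run from -2.66 for Fgg to 0.13 for Hp, and Hp alone points to the right.

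Within the groups the genes did not share 1 order of arrays. On the arrays labelled Falcor-null, replicate 2 was the lowest of the 3 for Alb, Ahsg, Apoa2, Saa3 and Hp and the highest for Fgg and Ttr. Replicate 1 was the lowest for Fgg, Ttr, Apoa1 and Lcn2, and the highest for Alb, Ahsg, Lbp, Saa3 and Hp. Among the wild-type arrays, replicate 1 was the lowest for Fgg, Ahsg, Apoa1, Lcn2 and Saa3, with a deviation from the group mean of -0.88 for Saa3 and of at most 0.40 in size for the other 4.

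The mean of the 6 hepatocyte-secreted genes was 5.74, 6.13 and 5.85 on the arrays labelled Falcor-null and 6.93, 7.06 and 7.08 on the wild-type arrays. Of 1199 other named genes with an SD of at least 0.3 over the 6 arrays, those most like this mean were Slc35d2 (Pearson r 0.998), Csf2 (0.988), Cdh16 (0.987), Selplg (0.987) and Cd52 (0.985). The mean of the other 4 genes was 10.26, 10.02 and 10.09 on the arrays labelled Falcor-null and 10.53, 10.93 and 10.85 on the wild-type arrays, and Blnk (0.992), Slamf9 (0.990), Pdcd1lg2 (0.989), Sema4d (0.987) and Gpr183 (0.983) were most like it. Each r rests on 6 arrays that fall into the 2 genotype groups, and all 10 of these genes were lower on every array labelled Falcor-null than on any wild-type array.

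Other positive acute-phase genes were mostly lower as well, and Cfb passed the test. Of 27 genes in the list, 17 were measured, 16 of them lower and 1 higher, with a median log2 difference of -0.66. In limma 1 fell at an adjusted p under 0.05 and 0 rose, where 0.460% of all genes fell and 0.0968% rose. Of the 17, 11 had an unadjusted p under 0.05, as did 13.8% of all genes. Ptx3, the 1 higher gene, was among these 11, with a log2 difference of 0.22 (limma adjusted p 0.324). Cfb, which encodes complement factor B of the alternative pathway, read 7.72, 7.73 and 7.81 on the arrays labelled Falcor-null, against 8.41, 8.38 and 8.44 on the wild-type arrays. The arrays within each group were nearly alike, and the log2 difference of -0.66 (SE 0.07), or 1.58-fold lower, had an adjusted p of 0.0179 in limma. The Cfb call was lost without replicate 1 (adjusted p 0.0747) or 2 (0.0777) of the arrays labelled Falcor-null and without wild type replicate 2 (0.0640) or 3 (0.0553).

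The acute-phase genes with the next smallest p-values did not pass. Serpina3n, a protease inhibitor related to antichymotrypsin, had a log2 difference of -1.04 (limma adjusted p 0.101), and Steap4, a metalloreductase induced in inflammation, of -1.10 (adjusted p 0.147). Orm1, which encodes an orosomucoid, had -1.49 (adjusted p 0.155), and Hamp, which encodes the iron hormone hepcidin, -1.04 (adjusted p 0.161). Orm1 read 6.613, 6.998 and 6.930 on the arrays labelled Falcor-null, against 7.40, 9.08 and 8.53 on the wild-type arrays, with wild type replicate 1 the lowest of its group as in Saa3. Without that array Orm1 passed at -1.96 (adjusted p 0.0342). Its relative Orm2, picked after its values were seen, had -1.67 (adjusted p 0.226) and passed at -2.34 without that array (adjusted p 0.0342). Sequence shared between Orm1 and Orm2 leaves the signal of each uncertain.

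Fga, the gene of the fibrinogen alpha chain and named once its values were known, had log2 signals of 3.94, 5.44 and 4.72 on the arrays labelled Falcor-null, against 5.51, 5.81 and 6.43 on the wild-type arrays. As in Fgg, replicate 2 was the highest of the arrays labelled Falcor-null and the groups did not overlap. The log2 difference of Fga was -1.21 (SE 0.38) and did not pass (limma adjusted p 0.226). Its mean signal was in the dimmest 30% of genes. The copper oxidase ceruloplasmin, encoded by Cp, had a log2 difference of -0.02 and the haem binder hemopexin, encoded by Hpx, of -0.15, both picked after their values were seen and neither passing (adjusted p 0.958 and 0.719). The fibrinogen beta chain gene and the serum amyloid A genes other than Saa3 were not analysed here.

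**Figure D3:**
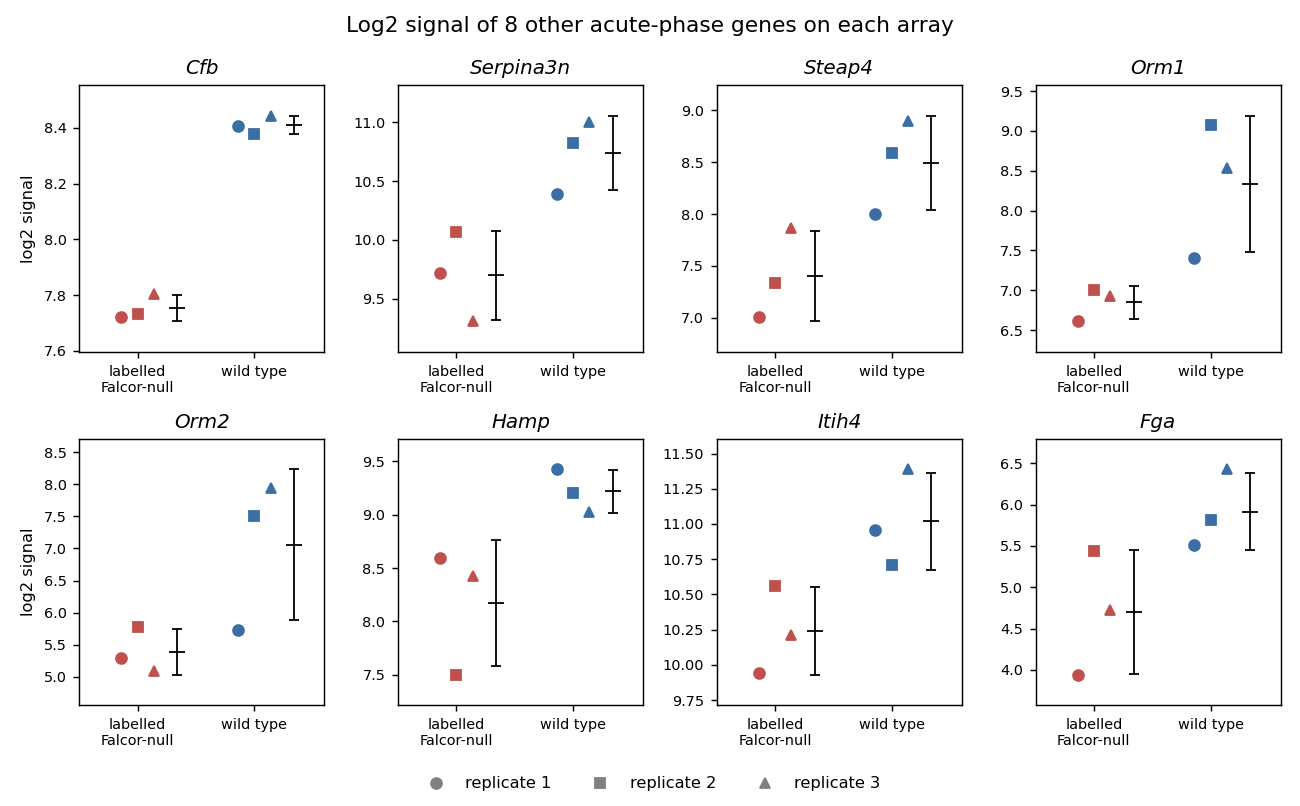
Log2 signal of 8 other acute-phase genes (vertical axes, each with its own range) on the 3 arrays labelled Falcor-null and the 3 wild-type arrays, with the mean and SD of each group. Cfb has tight groups that stand apart, Orm1 and Orm2 have wild type replicate 1 below the other wild-type arrays, and Fga has replicate 2 highest among the arrays labelled Falcor-null.

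Other genes of plasma proteins secreted mainly by hepatocytes were divided. Of 34 such genes 19 were measured, 12 of them lower and 7 higher, with a median log2 difference of -0.06. Their mean log2 signal was 5.584 to 5.585 on the arrays labelled Falcor-null and 5.99, 5.80 and 5.76 on the wild-type arrays. The means thus stood apart while the median gene differed little. Kng2, given below, had the largest difference of the list and makes up part of this gap. The groups did not overlap for 4 lower genes and 1 higher gene, beside 10.6% and 8.96% of all genes. None of the 19 passed in limma, and 5 had an unadjusted p under 0.05, beside 13.8% of all genes. These were the 4 lower genes given next and Apoc2, which had 0.25 (adjusted p 0.318). F10, which encodes coagulation factor X, had -0.76 (adjusted p 0.168), Apob, the main protein of low-density lipoprotein, -0.48 (adjusted p 0.245), and Fetub, a relative of Ahsg, -0.87 (adjusted p 0.247). The mean signals of Apob and Apoc2 were in the dimmest 30% of genes. Kng2, which encodes a kininogen, had -2.79 (adjusted p 0.240). It read 9.85 on wild type replicate 1, against 6.69 and 5.81 on the other wild-type arrays. Its log2 difference was -1.59 without wild type replicate 1. The apolipoprotein genes Apoa4, Apoc3 and Apoa5, picked after their values were seen, as relatives of Apoa1, had 0.04, -0.04 and 0.11 (adjusted p 0.875, 0.911 and 0.830).

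Hepatocyte genes whose proteins are not secreted were read as a check for liver tissue. Of 26 genes 11 were measured, 7 lower and 4 higher, with a median log2 difference of -0.15 and a mean log2 signal of 5.29 to 5.42 on the arrays labelled Falcor-null and 5.55 to 5.62 on the wild-type arrays. None passed in limma, and 4 had an unadjusted p under 0.05, beside the 13.8% of all genes. These were the urea cycle enzyme gene Cps1 at -0.35 (adjusted p 0.160), Cyp2e1 at -0.65 (adjusted p 0.193), the tyrosine aminotransferase gene Tat at -1.04 (adjusted p 0.243) and Hpd at -0.19 (adjusted p 0.353). The mean signals of Cps1, Tat and Hpd were in the dimmest 30% of genes. Tat read 4.85, 4.87 and 4.90 in the arrays labelled Falcor-null, against 6.81 on wild type replicate 1 and 5.57 and 5.35 on the other wild-type arrays, and its log2 difference was -0.59 without that array. Among the wild-type arrays, Cyp2e1, Hpd, Kng2 and Fetub were also highest on replicate 1, and Cps1, F10 and Apob on replicate 2. Of the hepatocyte-secreted members, Alb and Apoa2 were highest on wild type replicate 2, and Ttr, Fgg, Ahsg and Apoa1 on wild type replicate 3. The part of liver RNA in the members' differences was not tested.

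The cytokines that induce the acute phase and their receptors gave 11 lower and 2 higher of 13 measured, with a median log2 difference of -0.15. None passed in limma, and 3 of the 13 had an unadjusted p under 0.05, beside 13.8% of all genes. The interleukin genes Il17f and Il1a had -0.59 (adjusted p 0.101) and -0.64 (adjusted p 0.368), the tumour necrosis factor gene Tnf -0.71 (adjusted p 0.256), and Osm, which encodes oncostatin M, -0.31 (adjusted p 0.361). Without wild type replicate 2 Il1a had -0.31, and without wild type replicate 3 Osm had -0.20. Regulators of these genes divided evenly, 6 lower and 7 higher of 13 measured, with a median of 0.0074. None of them passed, and 1 had an unadjusted p under 0.05, beside the 13.8% of all genes. This was Foxa2 at 0.27 (adjusted p 0.175), followed by its relative Foxa3 at 0.22 (adjusted p 0.412), the liver factor Hnf4a at 0.24 (adjusted p 0.442) and Cebpa, a C/EBP factor, at 0.15 (adjusted p 0.591). Without replicate 2 of the arrays labelled Falcor-null Foxa3 and Hnf4a both had 0.13, and Cebpa lay between 0.05 without wild type replicate 1 and 0.24 without wild type replicate 3.

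Among receptors and binding partners of the member proteins, 14 were lower and 3 higher of 17 measured, with a median log2 difference of -0.09. None passed in limma, and 3 of the 17 had an unadjusted p under 0.05, beside 13.8% of all genes. Cd14, the receptor that takes lipopolysaccharide from the protein of Lbp, read 7.45, 7.39 and 7.49 on the arrays labelled Falcor-null, against 7.87, 8.16 and 8.36 on the wild-type arrays. The groups did not overlap, and the log2 difference of -0.69 (SE 0.13) had an adjusted p of 0.0791, and of 0.0413 without wild type replicate 1. Ly96, the partner of Toll-like receptor 4, had -0.39 (adjusted p 0.428), Tlr2 -0.64 (adjusted p 0.155) and Hmox1, which breaks down haem, -0.37 (adjusted p 0.332). Without wild type replicate 2 Ly96 had -0.20.

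**Figure D4:**
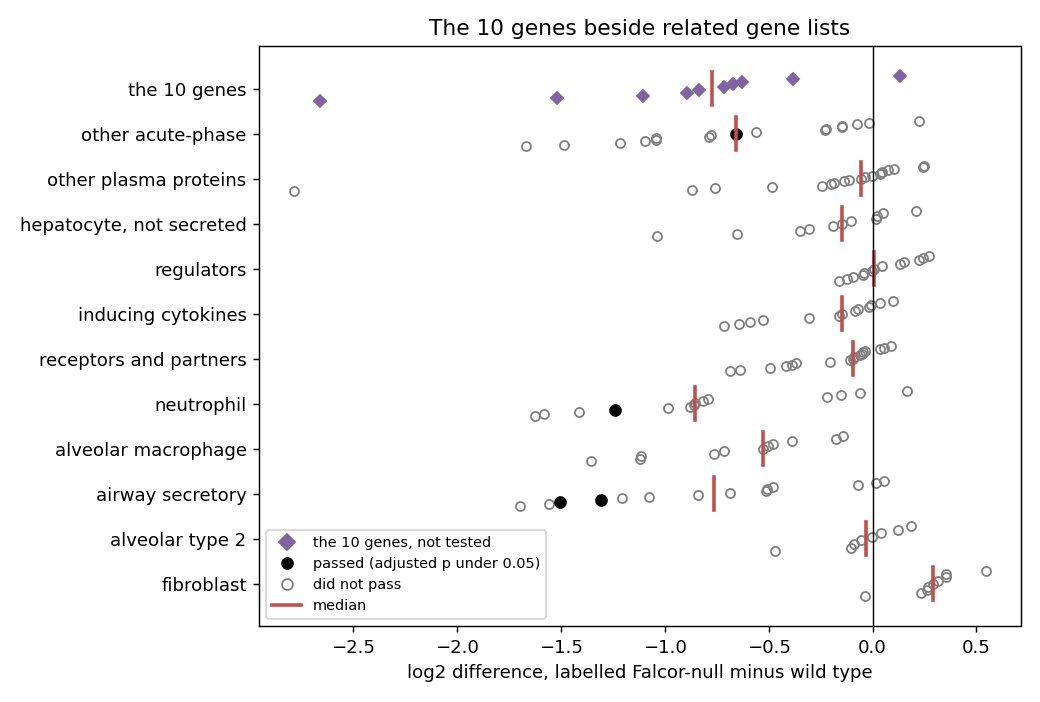
Log2 difference (horizontal axis, arrays labelled Falcor-null minus wild type) of each measured gene in 11 related lists below the 10 genes, with a red line at each median. The median of the 10 genes is -0.77, that of the other acute-phase genes -0.66 and that of the other plasma protein genes -0.06, and 4 genes of the lists shown passed the test.

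Several markers of cells that also make Lcn2, Saa3, Lbp or Hp were lower beside the members. Of all genes 49.2% were lower. Of 14 measured neutrophil markers 13 were lower, with a mean log2 signal of 6.004 to 6.267 on the arrays labelled Falcor-null. On the wild-type arrays it was 6.68, 6.71 and 7.52, with replicate 3 far above the others. Of 11 alveolar macrophage markers all 11 were lower, at 8.53 to 9.03 on the arrays labelled Falcor-null and 9.09 to 9.60 on the wild-type arrays. Of 14 markers of airway secretory cells 12 were lower, at 7.86 to 8.04 on the arrays labelled Falcor-null and 8.12 to 9.09 on the wild-type arrays. Wild type replicate 3 was the low one at 8.12, close to the highest array labelled Falcor-null, with 9.09 and 9.06 on the other wild-type arrays. In this list 3 club cell genes, picked after their values were seen, had log2 differences near 0. These were 0.02 for Scgb1a1 (adjusted p 0.944), 0.05 for Cyp2f2 (adjusted p 0.859) and -0.07 for Scgb3a2 (adjusted p 0.867). The secretoglobin gene Scgb3a1, likewise picked, had -0.51 (adjusted p 0.454). Mean signals of Scgb1a1 and Cyp2f2 were at percentiles 99.98 and 99.75 of all genes, near the end of the scale, where differences are compressed. These 3 lists thus had separate ranges in the 2 groups. Of the neutrophil, macrophage and airway markers 6, 7 and 8 had an unadjusted p under 0.05 in limma, beside 13.8% of all genes. The groups stood apart on the lower side for 8, 6 and 5 of them, beside 10.6% of all genes. The lists were chosen with earlier results known, so nothing is read from these shares. The part of these cells in the members' differences was not tested.

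Beside the 0.460% of all genes that passed lower, 3 genes of these lists passed in limma, all lower. They were the decoy interleukin 1 receptor gene Il1r2 of neutrophils at -1.24 (adjusted p 0.0383), the lectin gene Itln1 at -1.31 (adjusted p 0.0265) and the airway antimicrobial gene Bpifa1 at -1.51 (adjusted p 0.0383). The mean signals of Il1r2 and Itln1 were in the dimmest 30% of genes, so the filter on dim genes left both out. Bpifa1 did not pass with any single array left out (adjusted p 0.0554 to 0.131). Il1r2 passed only without wild type replicate 1, with an adjusted p of 0.0610 to 0.132 without any other array. Itln1 did not pass without wild type replicate 2 or any 1 of the arrays labelled Falcor-null (adjusted p 0.0764 to 0.101). With the replicate number as a block Itln1 passed (adjusted p 0.0432), and Il1r2 (0.0625) and Bpifa1 (0.104) did not.

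The markers with the next smallest p-values had groups that did not overlap, save the airway gene Tff2, and none passed in limma. They were picked by p in this same contrast, so nothing is read from the lack of overlap. In the neutrophil list the log2 difference was -0.85 for the granule protease gene Mmp9 (adjusted p 0.133), -1.58 for its relative Mmp8 (adjusted p 0.175) and -1.41 for S100a8, which encodes a calprotectin subunit (adjusted p 0.180). In the alveolar macrophage list Chil3 had -1.12 (adjusted p 0.0748), Pparg, a transcription factor needed by these cells, -0.50 (adjusted p 0.0854) and the cathepsin gene Ctsk -1.35 (adjusted p 0.123). In the airway list Pigr, the carrier of immunoglobulin A into the lumen, had -1.56 (adjusted p 0.105) and Agr2, which helps mucin folding, -0.84 (adjusted p 0.207). The mean signal of Agr2 was in the dimmest 30% of genes. Chil3 passed without wild type replicate 1 (adjusted p 0.0413), with the replicate block (0.0346) and with an intensity trend (0.0460), and Pigr passed without replicate 3 of the arrays labelled Falcor-null (0.0277). S100a8 had -0.90 without wild type replicate 3, and without that array Tff2 passed (adjusted p 0.0274). The neutrophil gene Stfa2l1 also passed without that array, at -0.97 (adjusted p 0.0416), beside -1.63 (adjusted p 0.212) with all arrays. Its mean signal was in the dimmest 30% of genes.

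Fibroblast markers went the other way, with 8 of 9 higher, at a mean log2 signal of 9.30 to 9.49 on the arrays labelled Falcor-null and 9.04 to 9.21 on the wild-type arrays. None of the 9 passed in limma, Dpt being nearest at 0.55 (adjusted p 0.0824, and 0.0438 with an intensity trend). Of the 9, 5 had an unadjusted p under 0.05, beside 13.8% of all genes. Alveolar type 2 cell markers had 5 lower and 3 higher of 8, adipocyte markers 5 lower and 1 higher of 6, mesothelial markers 1 lower and 8 higher of 9 and platelet markers 3 lower and 1 higher of 4, and none of these passed. Their mean signals overlapped between the groups, at 5.98 to 6.28 on the arrays labelled Falcor-null and 6.05 to 6.42 on the wild-type arrays for adipocytes. Only 2 of 12 red blood cell genes were measured, so that the blood content of the samples was not read here.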

How the data were processed

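Total RNA of whole lung was amplified, biotin-labelled and hybridised to single-channel arrays, per the labels' protocols. Each probe set has a log2 signal, deposited by the authors and made with oligo, RMA and limma, per the submitters' processing notes, which name no versions. RMA subtracts background, makes the distributions of the arrays alike and summarises the probes, and it compresses differences near the ends of the scale. Filters and genome build are not given in the sources used here.

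Of 24173 probe sets, 17476 had 1 gene symbol in the platform annotation, and 1308 with several and 5389 with none were left out. Symbols were updated through gene numbers, of which 17368 matched a RefSeq table of GRCm38.p6. Where a gene had several probe sets the brightest stood for it, which left 16537 genes. Groups came from sample titles. limma 3.58.1 under R 4.3.3 (lmFit, then eBayes) gave two-sided p-values per gene without covariates, and these were adjusted over all genes by the Benjamini-Hochberg method, with a threshold of 0.05. The fit was tested on simulated data. The smallest p an exact permutation of 3 and 3 arrays allows is 0.1.

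The 10 members, the 15 lists and the motifs were chosen with earlier results of these data known. In each list, genes that passed and up to 4 others with the smallest p were to be named, with the 5 genes most like each set of members. Not all list genes picked by this rule are printed above. Alternatives were the replicate number as a block, array centring, a second quantile normalization, an intensity trend, robust variance, array weights, a filter on the dimmest 30% of genes, averaged probe sets and leaving out each array. The replicate numbers did not pair the samples: deviations of same-numbered arrays correlated at 0.0217, -0.0025 and -0.08. Promoters were matched by symbol. Python 3.11.15 and matplotlib 3.10.9 drew the figures.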

Additional observations from a re-analysis of the deposited data

How the results depend on the processing

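The median log2 difference of the 10 members lay between -0.86 and -0.71 with 1 array left out, was -0.74 after centring on array medians and was -0.77 with the replicate block, which cannot move a difference in this balanced design. No member changed sign in 119 values. For the 9 members whose groups do not overlap, leaving out an array cannot turn the sign or bring the groups together, so this says nothing of their stability. The number of other acute-phase genes passing lay between 0 and 3 with 1 array left out. With the replicate block 1 passed, Steap4 (adjusted p 0.0350) in place of Cfb (adjusted p 0.0750). Of the other plasma protein genes and the hepatocyte genes 0 passed under every alternative run. Over all genes 92 passed, 32 with the replicate block and 18 to 89 with 1 array left out. For the 62 genes that the naming rule picked from the lists, 5 of 851 values changed sign, all in the platelet list. They were Gp9 at 0.0018 and Ppbp at 0.22 without replicate 1 of the arrays labelled Falcor-null, Gp9 at 0.13 and Ppbp at 0.30 without wild type replicate 3, and Itga2b at -0.09 without wild type replicate 2. With 1 array left out Gp9 reached -0.33, Ppbp -0.67 and Itga2b 0.20 at the other end of their ranges. Of the 62 genes, 27 had at least 1 value of the same sign that differed by over 1.5 times when 1 array was left out. The cause of these changes was not tested. Signal over background is unknown, since no detection calls were used.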
